A study of Mus musculus with 11 samples.

Results

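Bone morphogenetic protein (BMP) signalling and its Id target genes were followed in mouse embryonic stem cells (ESCs) transfected with siRNAs against CMTR1, the enzyme that methylates the first transcribed nucleotide of the mRNA cap. The genes were taken by name and role, with earlier results of these data known. They were the ligand Bmp4, the type I receptor Bmpr1a, the receptor-activated SMADs Smad1 and Smad5, the inhibitory SMAD Smad6, and the targets Id1, Id2, Id3 and Id4. All 9 were found by symbol among the 54838 genes of the count files, and all 9 passed the filter on low counts together with 16073 genes in all (more than 1 CPM, the read count scaled to the library's total, in at least 4 libraries).

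The cells were of the E14 line, grown without feeders on gelatin with LIF and serum replacement, and every group was transfected and collected after 36 h. The 11 RNA-seq libraries comprised 3 labelled control siRNA, 4 labelled CMTR1 siRNA 1 and 4 labelled CMTR1 siRNA 2. The labels name no other treatment in any group. The study's methods speak of 3 biological replicates, while the labels number 4 libraries for each CMTR1 siRNA and do not say which were separate cultures. P-values therefore measure the spread between these libraries, part of which may be technical.

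BMP ligands bring together type I and type II serine-threonine kinase receptors, and the type I receptor phosphorylates SMAD1, SMAD5 and SMAD9, which enter the nucleus with SMAD4. SMAD6 and SMAD7 are induced by the pathway and restrain it. The Id genes are its classical direct targets, and Id proteins bind E proteins through a helix-loop-helix domain and keep them from DNA. In mouse ESCs, BMP4 acts with LIF through Id proteins to hold back neural differentiation.

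The coding sequences below are shown because the 4 Id genes are paralogs and their reads could be confused. They are the best matching in-frame stretch of 120 bases (GENCODE M21 annotation, GRCm38), 5′ to 3′ on the coding strand, and each lies within 1 exon. Capitals mark the 69 bases (57.5%) that were the same in all 4 genes.
Id1: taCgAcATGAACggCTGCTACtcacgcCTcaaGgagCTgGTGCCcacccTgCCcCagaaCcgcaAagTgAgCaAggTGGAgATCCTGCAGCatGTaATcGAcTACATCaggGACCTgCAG
Id2: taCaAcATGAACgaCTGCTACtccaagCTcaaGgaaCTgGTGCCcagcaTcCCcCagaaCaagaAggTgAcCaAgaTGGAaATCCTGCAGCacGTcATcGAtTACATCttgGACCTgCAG
Id3: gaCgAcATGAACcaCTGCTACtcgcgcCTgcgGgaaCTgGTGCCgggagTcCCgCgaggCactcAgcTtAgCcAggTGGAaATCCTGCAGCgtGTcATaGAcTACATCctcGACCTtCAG
Id4: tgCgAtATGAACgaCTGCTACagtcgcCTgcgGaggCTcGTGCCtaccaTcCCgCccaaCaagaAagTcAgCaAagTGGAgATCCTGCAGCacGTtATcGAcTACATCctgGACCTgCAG
The stretch of Id1 lies at chr2:152736518-152736637 on the plus strand, bases 178 to 297 of a coding sequence of 504 bases. The stretch of Id2 lies at chr12:25095783-25095902 on the minus strand, bases 109 to 228 of a coding sequence of 465 bases. The stretch of Id3 lies at chr4:136144002-136144121 on the plus strand, bases 124 to 243 of a coding sequence of 357 bases. The stretch of Id4 lies at chr13:48261693-48261812 on the plus strand, bases 196 to 315 of a coding sequence of 483 bases. Identity between pairs ran from 70.8% (Id1 and Id3, and Id3 and Id4) to 81.7% (Id1 and Id2), and the longest run of identical bases in any pair was 17. No stretch of 75 bases, the read length, was shared between the transcripts of any Id gene and those of another gene. The same held for Bmp4, Bmpr1a, Smad1 and Smad6, while 26 of 7556 stretches of Smad5 (0.344%) were shared with Gm27301. Exons of other genes covered 3.96% of the exon bases of Bmp4, 4.44% of Id4 and 4.57% of Bmpr1a on the opposite strand, and 1.35% of Smad5 on the same strand, and whether the counting used strand is not given in the sources used here. The exons of Id1, Id2, Id3, Smad1 and Smad6 overlapped no other gene of the files.

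Promoter sequences are shown for Bmp4 and Smad6, the members whose RNA differed most from control with siRNA 2. They run from 250 bases before to 30 bases after the RefSeq start (GRCm38.p6), 5′ to 3′ on the gene's strand. Capitals mark matches, on either strand, to 3 motifs known from SMAD binding: the palindrome GTCTAGAC and the GC-rich GGCGCC and GGAGCC.
Bmp4: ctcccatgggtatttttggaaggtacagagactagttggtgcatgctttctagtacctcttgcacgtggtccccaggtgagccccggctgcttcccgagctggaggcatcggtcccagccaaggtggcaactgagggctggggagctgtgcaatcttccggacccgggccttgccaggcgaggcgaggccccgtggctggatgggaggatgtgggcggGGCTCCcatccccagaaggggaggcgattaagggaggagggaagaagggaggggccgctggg
Smad6: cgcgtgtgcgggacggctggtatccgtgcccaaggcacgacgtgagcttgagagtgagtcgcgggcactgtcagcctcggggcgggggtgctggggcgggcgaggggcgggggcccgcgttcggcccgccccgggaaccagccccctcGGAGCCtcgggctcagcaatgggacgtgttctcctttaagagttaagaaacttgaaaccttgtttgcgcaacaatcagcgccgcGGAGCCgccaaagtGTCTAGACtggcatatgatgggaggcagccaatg
The Bmp4 stretch lies at chr14:46390640-46390919 and the Smad6 stretch at chr9:64022030-64022309, both on the minus strand. Smad6 held the palindrome across its start, from base -4 to base 4, and GGAGCC from -102 and from -18. Bmp4 held GGAGCC on the opposite strand, from -32 to -27. Of the 32851 promoter windows of 300 bases in the RefSeq table, 0.213% held GTCTAGAC, 11.9% held GGCGCC and 30.8% held GGAGCC. The table held windows for 8 of the 9 members, all but Id1. Among those 8, Smad6 alone held the palindrome, 4 held GGCGCC (Bmpr1a, Id2, Id4 and Smad5) and 6 held GGAGCC (Bmp4, Id2, Id3, Id4, Smad5 and Smad6). These are matches of letters, and binding was not measured here.

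The total of assigned reads was 6738478 to 8382318 per library. Cmtr1 itself checks the labels: it was at 21.3, 21.7 and 17.9 CPM in control, at 21.1, 21.3, 16.2 and 18.04 CPM in siRNA 1 and at 15.6, 16.8, 16.4 and 19.5 CPM in siRNA 2 libraries. All 3 groups overlapped. The log2 difference from control was -0.09 (95% interval -0.30 to 0.13, adjusted p = 0.743) for siRNA 1 and -0.25 (-0.46 to -0.03, adjusted p = 0.144) for siRNA 2. Neither passed the threshold, so the directions that follow are those of libraries labelled siRNA 1 or siRNA 2, called siRNA 1 and siRNA 2 for short, and not of a knockdown shown in these counts. Of the 9720 exon bases of Cmtr1, 75.8% lie within exons of other genes in the files (Gm28043, Gm28052 and Ccdc167), where reads can be left out as ambiguous, so this is a partial check. The study itself states that CMTR1 fell rapidly after transfection of CMTR1 siRNA. It lists western blotting among the uses of both siRNAs.

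Markers of the cell type were measured beside the BMP genes. Of 10 ESC markers, all 10 were tested; their highest were Pou5f1 (a mean of 462 CPM) and Utf1 (299.5 CPM). Of them, 7 were lower in libraries labelled siRNA 1 and 5 in those labelled siRNA 2 (Nanog, Zfp42, Esrrb, Klf4 and Tfcp2l1 in both). Among all genes tested, 1.97% and 3.55% were called lower. The summed level of the 10 markers was 2059 to 2191 CPM in control, 1747 to 1953 CPM with siRNA 1 and 1845 to 1928 CPM with siRNA 2. The neuroectoderm list held 5 genes, led by Nes (74.0 CPM) and Sox1 (34.6 CPM). It summed to 102 to 110, 119 to 139 and 116 to 140 CPM in the same order. Nes was higher with each siRNA, a call that DESeq2 did not make with siRNA 1. The log2 differences from control with siRNA 1 and siRNA 2 were 0.255 and 0.03 for Sox1, 0.38 and -0.30 for Pax6 and 0.94 and 0.33 for Zic1. Against control these were not called, except Sox1 and Zic1 with siRNA 1 by exactTest. The fibroblast list held 7 genes, led by Col1a2 (12.3 CPM) and Col1a1 (10.7 CPM). It summed to 23.3 to 27.8 CPM in control, 24.7 to 28.5 CPM with siRNA 1 and 34.2 to 39.0 CPM with siRNA 2. With siRNA 2 Col1a1 and Dcn were higher and Col3a1 lower, and DESeq2 kept only the Col1a1 call. No gene of the endoderm (8 genes, led by Dab2 at 26.2 CPM and Pdgfra at 16.7 CPM), mesoderm (6 genes, led by Eomes at 4.94 CPM and T at 1.72 CPM) or trophoblast list (6 genes, led by Tfap2c at 32.1 CPM and Eomes) was called in either comparison by edgeR's quasi-likelihood test, exactTest or DESeq2, and 0, 1 and 2 genes of these lists had an unadjusted p under 0.05 with siRNA 2 (0, 0 and 1 with siRNA 1). Between the siRNAs, edgeR's quasi-likelihood test called Esrrb, Pax6 and Tfap2c lower with siRNA 2, beside 7.44% of all genes called. It called Nes, Col1a1 and Dcn higher with siRNA 2. DESeq2 did not make the Esrrb and Nes calls between the siRNAs. No list held a gene at 0 in every library. The part of these markers in the results that follow was not tested. In bulk RNA, fewer cells of a type and less RNA per cell cannot be told apart.

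In control cells the receptor Bmpr1a and Smad5 were the most abundant of the 9 genes and Id4 the least. Levels between genes are compared as CPM per kilobase of exons. Bmpr1a was highest at 18.9 ± 0.915 CPM per kb (SD, n = 3), followed by Smad5 at 9.32 ± 0.593, and neither overlapped its neighbours in this order. Next came Id1 at 6.12 ± 0.959, Bmp4 at 5.67 ± 0.427 and Id2 at 5.53 ± 0.834 CPM per kb, whose libraries overlapped one another. Id3 at 3.71 ± 0.874, Smad1 at 3.53 ± 0.422 and Smad6 at 3.09 ± 0.459 CPM per kb overlapped likewise, and Id2 overlapped Id3. Id4 was lowest at 0.564 ± 0.0663 CPM per kb, 5.47 times under Smad6 and without overlap. Among 16070 tested genes with an exon length, Bmpr1a stood at the 82.3rd percentile, Id1 at the 56.4th and Id4 at the 10.9th.

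**Figure D1:**
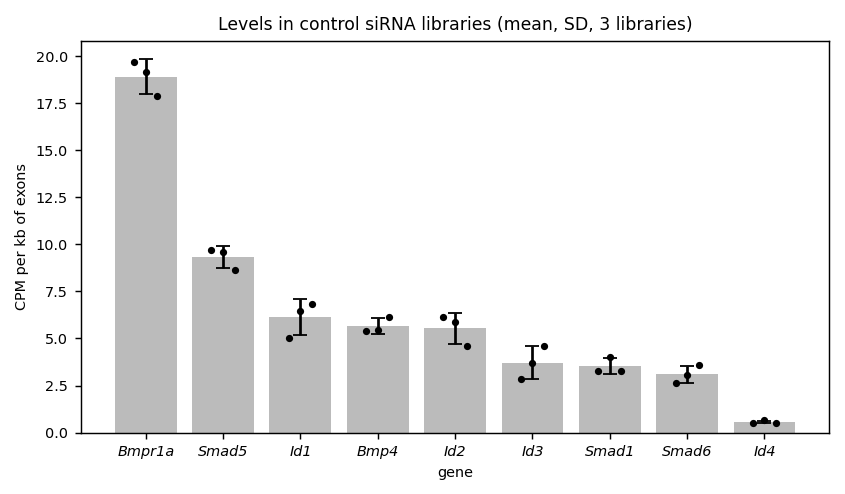
Levels of the 9 BMP and Id genes in the 3 control siRNA libraries, in CPM per kilobase of exons (y axis), with bars for the mean, error bars for the SD and a point for each library. Bmpr1a stands at 18.9 and Id4 at 0.564 CPM per kb.

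Bmp4 RNA was lower in every library labelled with either siRNA. Bmp4 (ENSMUSG00000021835, chr14:46383520-46390669, minus strand) encodes a BMP ligand that ESCs themselves express. It was at 12.2, 12.2 and 13.9 CPM in control, at 8.01, 7.73, 8.85 and 7.08 CPM with siRNA 1 and at 6.39, 7.04, 10.2 and 6.67 CPM with siRNA 2. Neither siRNA group overlapped control, while the siRNA groups overlapped each other. The log2 difference from control was -0.68 ± 0.14 (SE) with siRNA 1 (adjusted p = 0.00161) and -0.75 ± 0.14 with siRNA 2 (adjusted p = 0.000318), and both calls held under all 18 alternative settings, with adjusted p from 3.59e-05 to 0.0223 and from 1.09e-05 to 0.00659. The siRNAs differed from each other by -0.06 (95% interval -0.36 to 0.23, adjusted p = 0.855). With siRNA 2 the spread of Bmp4 was 23.6% of the mean against 13.1% from counting alone, and replicate 3 was the library far above the others.

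Bmpr1a (ENSMUSG00000021796, chr14:34410734-34503341, minus strand), the type I receptor that binds BMP4, was at 125, 122 and 114 CPM in control, at 118, 123, 129 and 127 CPM with siRNA 1 and at 129.8, 132, 120 and 139.7 CPM with siRNA 2. The 3 groups overlapped. Its log2 difference was 0.05 (95% interval -0.06 to 0.16, adjusted p = 0.708) with siRNA 1 and 0.12 (95% interval 0.01 to 0.23, adjusted p = 0.174) with siRNA 2, and neither passed the threshold. With 10573 reads in all, Bmpr1a was the most precisely measured of the 9 genes, and these intervals exclude a fall of the size seen for Bmp4.

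Smad1 and Smad5, which carry the signal from the receptor to the nucleus, also did not pass the test. Smad1 (ENSMUSG00000031681, chr8:79338395-79399518, minus strand) was at 20.6, 25.2 and 20.6 CPM in control, 22.0, 24.2, 23.9 and 22.6 CPM with siRNA 1 and 22.4, 24.1, 21.4 and 23.6 CPM with siRNA 2. Smad5 (ENSMUSG00000021540, chr13:56703010-56742377, plus strand) was at 72.1, 71.2 and 64.1 CPM, at 69.7, 72.3, 74.4 and 67.8 CPM and at 76.8, 77.4, 75.2 and 71.6 CPM in the same order. For both genes all groups overlapped. The log2 difference of Smad1 was 0.07 (95% interval -0.12 to 0.25, adjusted p = 0.786) with siRNA 1 and 0.05 (-0.14 to 0.24, adjusted p = 0.802) with siRNA 2. That of Smad5 was 0.04 (-0.08 to 0.16, adjusted p = 0.812) and 0.12 (0.00017 to 0.24, adjusted p = 0.215).

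Smad6 RNA was lower with siRNA 2. Smad6 (ENSMUSG00000036867, chr9:63953076-64022059, minus strand) encodes an inhibitory SMAD that blocks signalling at the type I receptor. The palindrome at its start is a match of letters, and its part in the level of Smad6 was not tested. Smad6 was at 8.51, 9.74 and 11.4 CPM in control, at 5.79, 9.72, 8.19 and 7.89 CPM with siRNA 1 and at 5.54, 5.01, 7.01 and 6.92 CPM with siRNA 2. The siRNA 2 libraries lay below all control libraries, and siRNA 1 overlapped both groups. The log2 difference was -0.69 ± 0.16 (SE) with siRNA 2 (adjusted p = 0.00343) and -0.31 ± 0.15 with siRNA 1 (adjusted p = 0.302). The difference between the siRNAs did not pass the threshold (-0.38, 95% interval -0.70 to -0.06, adjusted p = 0.140), so Smad6 is not shown to respond to siRNA 2 alone. Without control replicate 3 the siRNA 2 value was -0.58 and the call was lost (adjusted p = 0.0542).

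Among the Id genes, Id3 alone was called, and with siRNA 2 only. All 4 lay below control with siRNA 2, with a median log2 difference of -0.28 beside 0.03 over all genes tested, and 2 of 4 with siRNA 1, with a median of -0.06 beside 0.02. With siRNA 1, 0 of 4 was called by edgeR's quasi-likelihood test, by DESeq2 (no adjusted p for Id4) and by edgeR's exactTest, and 1 of 4 had an unadjusted p under 0.05 (Id1). With siRNA 2, Id3 was called lower and the other 3 were not called. Beside the 4.67% and 9.72% of all genes called with siRNA 1 and siRNA 2, these counts say little about 4 genes.

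Id3 (ENSMUSG00000007872, chr4:136143497-136145755, plus strand) was at 5.08, 6.66 and 8.21 CPM in control, at 5.34, 5.86, 6.47 and 5.75 CPM with siRNA 1 and at 3.41, 4.65, 3.78 and 5.06 CPM with siRNA 2. All siRNA 2 libraries lay below those of the other groups, although the highest of them was only just below control replicate 1. The log2 difference from control was -0.63 ± 0.18 (SE) with siRNA 2 (adjusted p = 0.0204) and -0.17 ± 0.17 with siRNA 1 (adjusted p = 0.677), and the siRNAs differed by -0.46 (95% interval -0.82 to -0.10, adjusted p = 0.105). The siRNA 2 call was lost without control replicate 2 (-0.63, adjusted p = 0.067), without control replicate 3 (-0.46, adjusted p = 0.204) and without siRNA 2 replicate 1 (-0.55, adjusted p = 0.076). The control libraries of Id3 varied by 23.6% of their mean against 13.9% from counting alone, on 40 to 61 reads each.

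Id1 (ENSMUSG00000042745, chr2:152736251-152737410, plus strand) was at 5.84, 7.52 and 7.94 CPM in control, at 5.05, 5.73, 5.55 and 5.75 CPM with siRNA 1 and at 5.54, 6.92, 5.12 and 5.43 CPM with siRNA 2. The siRNA 1 libraries lay just below the lowest control library, and siRNA 2 overlapped control. The log2 difference was -0.36 (95% interval -0.69 to -0.02, adjusted p = 0.250) with siRNA 1 and -0.29 (-0.62 to 0.03, adjusted p = 0.274) with siRNA 2. On 34 to 61 reads per library, counting alone gives a spread of 13.4% to 15.6% of the mean, and a fall of the size seen for Id3 with siRNA 2 lies within the siRNA 1 interval.

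Id2 (ENSMUSG00000020644, chr12:25093799-25097140, minus strand) was at 14.98, 14.3 and 11.2 CPM in control, at 13.5, 15.3, 13.1 and 15.5 CPM with siRNA 1 and at 12.2, 13.0, 11.7 and 14.1 CPM with siRNA 2. The groups overlapped throughout. The log2 difference was 0.09 (95% interval -0.15 to 0.33, adjusted p = 0.778) with siRNA 1 and -0.08 (-0.32 to 0.16, adjusted p = 0.745) with siRNA 2. The direction for Id2 with siRNA 1 rests on 1 library, since without control replicate 3 the value was -0.03.

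Id4 (ENSMUSG00000021379, chr13:48261228-48266026, plus strand) was the least deeply covered of the 9 genes, with 10 to 20 reads per library. It was at 2.03, 2.47 and 2.02 CPM in control, at 2.37, 1.99, 2.24 and 2.41 CPM with siRNA 1 and at 2.27, 1.67, 1.35 and 1.98 CPM with siRNA 2, and the groups overlapped. Its log2 differences of 0.05 (95% interval -0.48 to 0.57) and -0.26 (-0.81 to 0.28) were not called, and the width of these intervals shows how little this depth resolves.

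**Figure D2:**
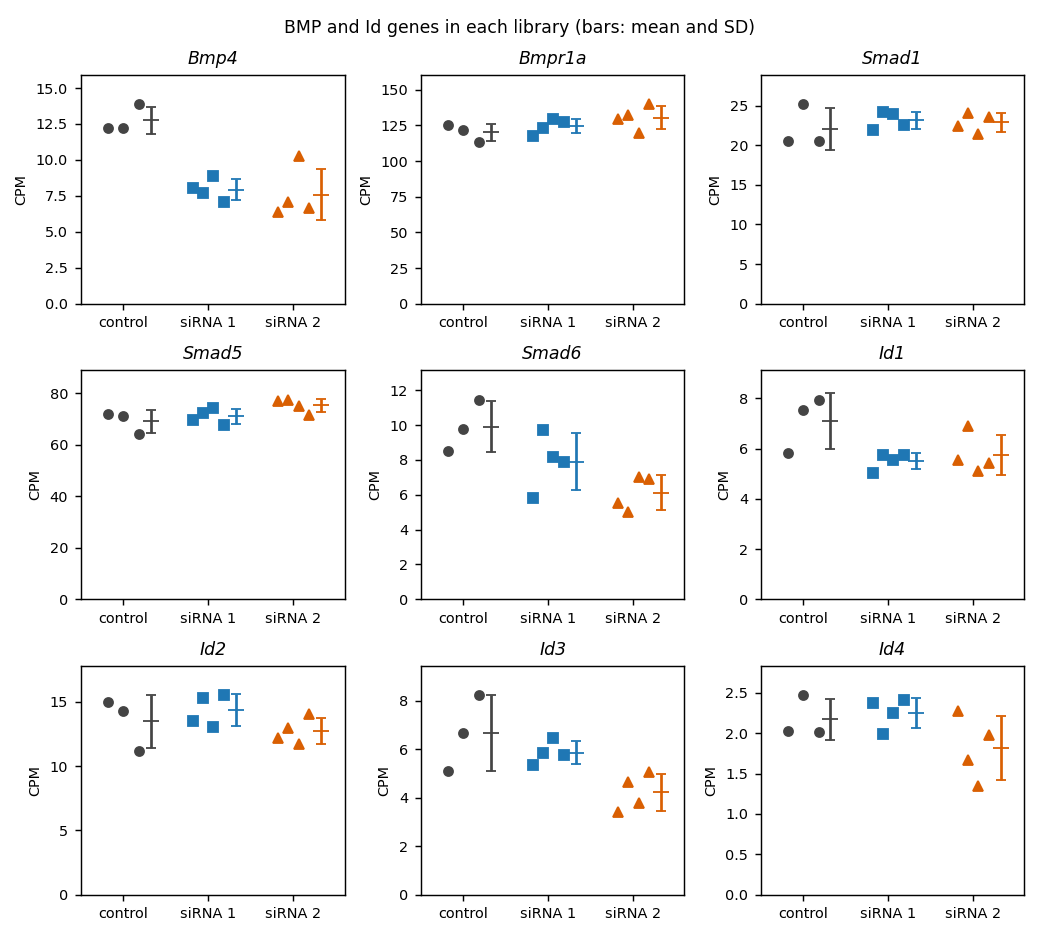
CPM (y axis, from 0) of each of the 9 genes in each library, by siRNA group, with the mean and SD beside the points. Bmp4 lies at 12.2 CPM or above in control and at 10.2 CPM or below with either siRNA, while Smad6 and Id3 are below control with siRNA 2.

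Counted together, 1 of the 9 genes (Bmp4) was called with siRNA 1 and 3 of the 9 (Bmp4, Smad6 and Id3) with siRNA 2, all lower. Among all genes tested, 4.67% were called with siRNA 1 (1.97% lower) and 9.72% with siRNA 2 (3.55% lower). The split by direction depends on the scaling: 435 genes were higher and 316 lower with siRNA 1, and 991 and 571 with siRNA 2, while TMM factors gave 346 and 400, and 728 and 734, and DESeq2 gave 199 and 322, and 409 and 549. With so few members, 1 call with siRNA 1 is no result about the group. The members were chosen with earlier results of these data known, so an excess of calls over all genes is not independent evidence. Libraries did not overlap between siRNA and control for 2 of the 9 genes with siRNA 1 and 3 of the 9 with siRNA 2, against 15.5% and 19.4% of all genes. The median log2 difference over the 9 genes was 0.04 with siRNA 1, beside 0.02 over all genes tested, and -0.26 with siRNA 2, beside 0.03.

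Both siRNAs against control gave 2 of 9 calls, beside 6.91% of all genes (2.72% lower, with 673 genes higher and 437 lower, against 509 and 573 with TMM factors and 301 and 446 with DESeq2). Bmp4 was at -0.72 ± 0.12 (SE, adjusted p = 0.000102) and Smad6 at -0.50 ± 0.14 (adjusted p = 0.0192). The Smad6 call was lost with edgeR's exactTest, run with the siRNA groups merged (-0.49, adjusted p = 0.0509). It was also lost without control replicate 2 (-0.51, adjusted p = 0.0764) and without control replicate 3 (-0.39, adjusted p = 0.211). Id3 was at -0.40 (adjusted p = 0.113), and among the 17 alternatives run it was called only without control replicate 1 (-0.56, adjusted p = 0.0419). Between the siRNAs, 0 of the 9 genes was called by edgeR's quasi-likelihood test, by exactTest and, for the 8 genes with an adjusted p, by DESeq2, against 7.44% of all genes, and 2 of the 9 (Id3 and Smad6) had an unadjusted p under 0.05. The comparisons with control share the same 3 libraries. For a single gene, an exact two-sided permutation test of 4 libraries against 3 cannot go below p = 0.0571, which Bmp4 reached with each siRNA, Id1 with siRNA 1, and Id3 and Smad6 with siRNA 2.

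**Figure D3:**
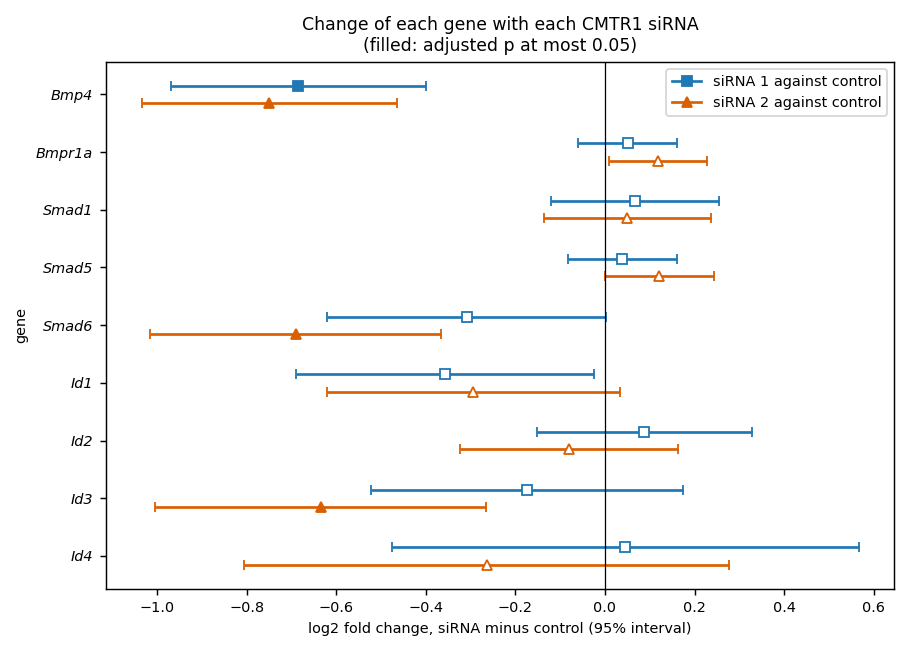
Log2 fold change of each gene, siRNA minus control (x axis), with its 95% interval, as squares for siRNA 1 and triangles for siRNA 2, filled where the adjusted p was at most 0.05. Bmp4 is filled for both siRNAs, at -0.68 and -0.75, and Smad6 and Id3 for siRNA 2 only.

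Control replicate 3 was the highest of the 11 libraries for 4 members (Id1, Id3, Bmp4 and Smad6) and the lowest for 3 (Id2, Bmpr1a and Smad5). Without it, calls with siRNA 2 fell from 1562 to 807 over all genes and from 3 to 1 among the members. Without control replicate 2 they were 916 and 2. Without control replicate 3, Bmp4 remained called with both siRNAs (-0.62, adjusted p = 0.0223, with siRNA 1 and -0.69, adjusted p = 0.00659, with siRNA 2).

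**Figure D4:**
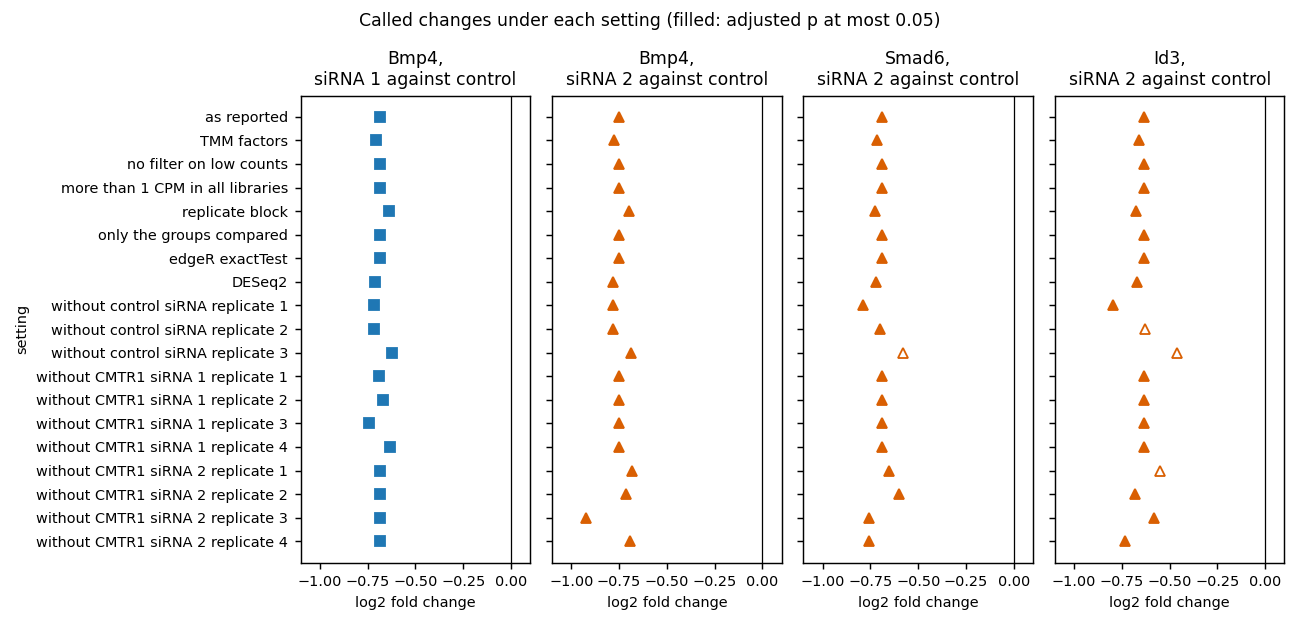
Log2 fold change against control (x axis) under the reported settings and each of 18 alternatives (y axis), for the 4 called changes of members, filled where the adjusted p was at most 0.05. Bmp4 is filled throughout, Smad6 is open in 1 setting and Id3 in 3, all of which leave out a library.

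The rest of the pathway was read from a list of 76 further genes, of which 56 were tested. With siRNA 1, 3 were higher and 1 lower, and with siRNA 2, 3 were higher and 4 lower, so 4 and 7 of 56 were called beside 4.67% and 9.72% of all genes. The median log2 difference over the list was 0.04 with siRNA 1 and 0.07 with siRNA 2, beside 0.02 and 0.03 over all genes. Among the ligands, 5 of 13 were tested and 0 was called with either siRNA by edgeR's quasi-likelihood test, exactTest or DESeq2, with 0 and 1 of the 5 at an unadjusted p under 0.05. Gdf3 was highest of them in control (32.3 ± 0.98 CPM per kb, SD, n = 3), followed by Bmp8a (2.14 ± 0.45). Bmp2 was not tested, as it had at most 5 reads in a library.

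Of the 6 receptors in the list, 5 were tested. Acvr2b, a type II receptor and the highest of them (22.4 ± 0.83 CPM per kb in control), was lower with siRNA 2 (-0.21 ± 0.06, adjusted p = 0.0305). Acvr1, a type I receptor, was higher with siRNA 2 (0.36 ± 0.11, adjusted p = 0.0282). The Acvr1 call was lost with DESeq2 (0.34, adjusted p = 0.114). Both calls were also lost in several settings that leave out a library: for Acvr1 without any of the control libraries or siRNA 2 replicates 1 and 4 (0.34 to 0.38, adjusted p = 0.0533 to 0.104), and for Acvr2b without control replicates 1 and 3 or siRNA 2 replicates 1, 3 and 4 (-0.21 to -0.18, adjusted p = 0.0687 to 0.152). Bmpr2, the type II BMP receptor (5.61 ± 0.16 CPM per kb in control), was called against control with neither siRNA (-0.16 with siRNA 1, adjusted p = 0.132, and 0.08 with siRNA 2, adjusted p = 0.447), but differed between them.

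All 6 co-receptors were tested and the 2 highest in control were Neo1 (9.91 ± 0.69 CPM per kb), a receptor for RGM proteins, and Eng (8.73 ± 0.61). Eng, or endoglin, was higher with siRNA 1 (0.28 ± 0.08, adjusted p = 0.0318), a call lost without control replicates 1 and 2 and siRNA 1 replicates 1 and 2 (0.22 to 0.30, adjusted p = 0.0601 to 0.240) and with TMM scaling (0.26, adjusted p = 0.0505) and DESeq2 (0.26, adjusted p = 0.110). Tgfbr3, or betaglycan, rose with siRNA 2 from 4.16 to 6.76 CPM (0.70 ± 0.18, adjusted p = 0.00755), which was lost without control replicate 2 (0.58, adjusted p = 0.0785).

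Of the other SMADs, all 3 were tested. Smad4, the common partner, was highest (26.1 ± 0.89 CPM per kb in control), and Smad7, the second inhibitory SMAD (15.4 ± 0.99), was lower with siRNA 2 (-0.26 ± 0.07, adjusted p = 0.0206), as Smad6 was. The Smad7 call was lost without control replicates 2 (-0.21, adjusted p = 0.137) and 3 (-0.25, adjusted p = 0.0778) and without siRNA 2 replicate 1 (-0.20, adjusted p = 0.112). Among the 13 SMAD cofactors and regulators, led in control by Skil (28.2 ± 1.47 CPM per kb), a corepressor of SMADs, and Yy1 (25.5 ± 0.61), 0 was called against control with either siRNA by edgeR's quasi-likelihood test, exactTest or DESeq2, and 1 had an unadjusted p under 0.05 with each.

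Of the 17 extracellular antagonists, 9 were tested, and the highest in control were Fstl1 (13.7 ± 0.82 CPM per kb) and Twsg1 (9.13 ± 0.31). Crim1, a transmembrane protein that binds BMPs, was higher with both siRNAs, at 15.8 CPM with siRNA 1 and 16.3 CPM with siRNA 2 against 11.9 CPM in control (0.41 ± 0.11, adjusted p = 0.0192, and 0.45 ± 0.11, adjusted p = 0.00483). With siRNA 2 the Crim1 call held under all 18 alternatives, and with siRNA 1 it was lost with DESeq2 (0.39, adjusted p = 0.0848) and without control replicates 2 and 3 or siRNA 1 replicate 2 (0.38 to 0.41, adjusted p = 0.0672 to 0.111). Bambi, the membrane pseudoreceptor (1.34 ± 0.31 CPM per kb), was not called. Noggin was not tested, with at most 8 reads in a library.

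Of the 4 genes for ligand processing, Pcsk6, a proprotein convertase, was highest (9.46 ± 0.95 CPM per kb in control), followed by Furin (2.86 ± 0.35). Pcsk6 was lower with siRNA 2, at 38.5 against 49.1 CPM (-0.35 ± 0.08, adjusted p = 0.00219), which was lost without control replicate 3 (-0.26, adjusted p = 0.058), and stood at -0.24 with siRNA 1 (adjusted p = 0.0556, called by exactTest). Of the 10 targets outside the Id family, 7 were tested, led by Dusp9 (24.1 ± 1.00 CPM per kb), a phosphatase of MAP kinases, and Tbx3 (7.53 ± 0.85), a T-box factor of the naive state. Tbx3 was lower with both siRNAs, at 37.9 and 36.9 CPM against 49.9 CPM in control (-0.40 ± 0.09, adjusted p = 0.00377, and -0.43 ± 0.09, adjusted p = 0.000796). The siRNA 2 call held under all 18 alternatives, and the siRNA 1 call was lost without control replicate 2 (-0.31, adjusted p = 0.0913).

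The E proteins that Id proteins bind were all present, with Tcf3 highest (50.9 ± 1.43 CPM per kb in control), then Tcf12 (4.96 ± 0.15). Tcf4 was higher with siRNA 1 (0.21 ± 0.06, adjusted p = 0.0169), a call lost with DESeq2 (0.19, adjusted p = 0.0540) and without control replicates 2 and 3 or siRNA 1 replicates 1 and 2 (0.17 to 0.22, adjusted p = 0.0568 to 0.139). With siRNA 2 Tcf4 was at 0.00 (adjusted p = 0.992). With the 8 siRNA libraries pooled, 4 of 56 genes were called beside 6.91% of all genes, so this count is no result about the pathway. Crim1 and Tcf12 were higher and Pcsk6 and Tbx3 lower. Tcf12 was named after its values were seen (0.16 ± 0.05, adjusted p = 0.0349), and its call was lost in 11 of 17 alternatives. The pooled Pcsk6 call was lost without control replicate 3 (-0.21, adjusted p = 0.130).

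**Figure D5:**
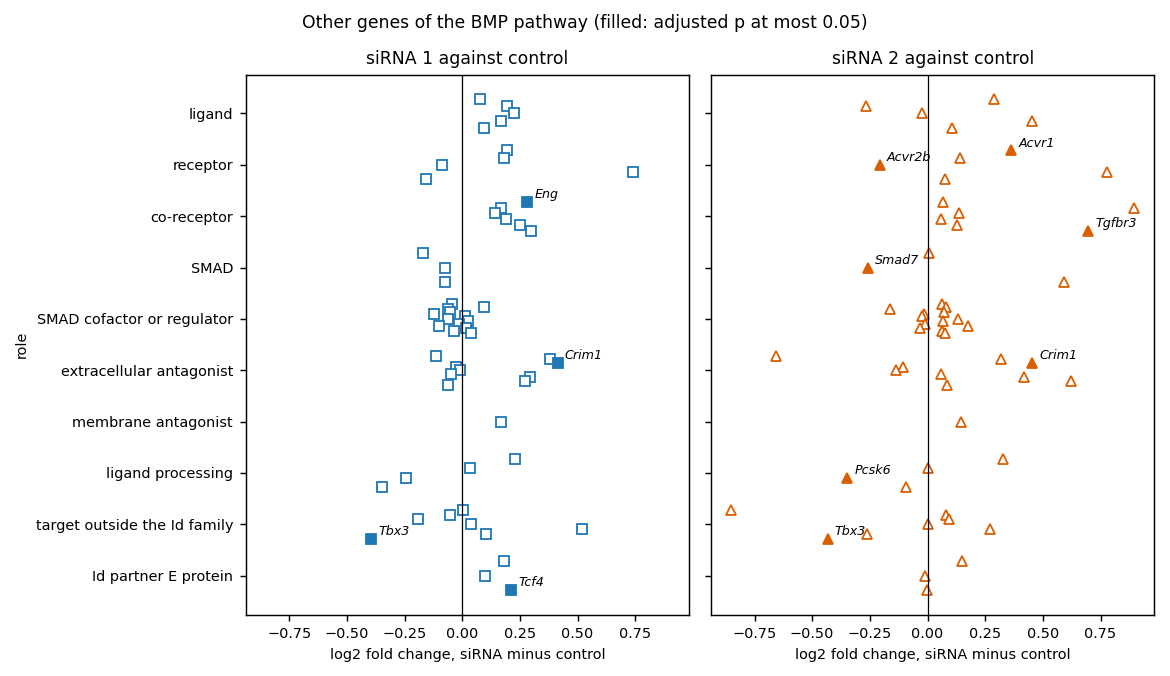
Log2 fold change, siRNA minus control (x axis), of the 56 further pathway genes tested, by role (y axis), with siRNA 1 at left and siRNA 2 at right, filled and named where the adjusted p was at most 0.05. Crim1 (0.41 and 0.45) and Tbx3 (-0.40 and -0.43) are filled in both panels.

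Between siRNA 1 and siRNA 2, 4 of the 56 genes were called, against 7.44% of all genes. Bmpr2 was at 107 CPM with siRNA 2 and 90.4 CPM with siRNA 1, Smad4 at 97.3 and 85.9 CPM, Skil at 300.1 and 262 CPM, and Tcf4 at 105 and 121 CPM. For Bmpr2, Smad4, Skil and Tcf4 the libraries of the groups did not overlap. The share of all genes without overlap in this comparison was not counted.

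Across the 11 libraries, Id3 and Smad6 followed each other most closely among pairs of members (Pearson's r = 0.76, Spearman's rho = 0.83 on log2 CPM), and r was 0.57 without the 2 libraries farthest from the median of Id3. Bmp4 and Smad6 had r = 0.70 and rho = 0.78 (0.45 without the 2 farthest). These values include the differences between groups, and after the group means were removed r was 0.44 and 0.33. Id1 and Id3 had r = 0.59 and rho = 0.55. Their r was 0.08 without the 2 farthest libraries and 0.68 after the group means were removed. The closest pair depended on the measure: without the 2 farthest libraries r was highest for Id3 and Id4 (0.89). After the group means were removed it was highest for Id2 and Bmpr1a (0.68). The points share libraries and depth, so these are descriptions.

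The likeness of other genes was ranked over 8235 genes whose log2 CPM averaged 4 or more. The 3 most like Id1 over the 11 libraries were Capns1 (r = 0.94, rho = 0.86), Eef2 (r = 0.94, rho = 0.82), the translation elongation factor, and Uhrf1 (r = 0.94, rho = 0.86), a cofactor of maintenance DNA methylation. For Id2 they were Pdcd2 (r = 0.90, rho = 0.87), Phf20l1 (r = 0.85, rho = 0.82) and Twistnb (r = 0.84, rho = 0.83), a subunit of RNA polymerase I. For Id3 they were Iqgap2 (r = 0.96, rho = 0.95), Llgl2 (r = 0.94, rho = 0.98), a cell polarity protein, and Kdm4a (r = 0.93, rho = 0.97), a histone demethylase. Without the 2 libraries farthest from the median, r for these 9 genes was 0.67 to 0.93. No gene was among the 3 most like more than 1 of Id1, Id2 and Id3, and Id4 was not ranked. These r are the highest picked from 8235 genes on only 11 libraries. Such a choice gives high values even among unrelated genes, so they are descriptions and were not tested.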

How the data were processed

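RNA-seq libraries were made by the authors from rRNA-depleted total RNA with a directional kit and sequenced as paired reads of 75 bases. Per the study's methods, reads were trimmed with Cutadapt and aligned to GRCm38/mm10 with STAR, duplicates were removed with Picard and reads were counted per gene with featureCounts. The deposited values are raw counts per Ensembl gene; 10 of the 11 files also hold HTSeq-style summary lines (no feature, ambiguous, not unique), which were left out of library totals: 5314618 to 6998875 reads had no feature and 137308 to 164565 were ambiguous.

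Gene names came from GENCODE M21 (54809 of 54838 IDs matched). Genes with more than 1 CPM in at least 4 libraries were tested with edgeR 4.0.16 (R 4.3.3), in a quasi-likelihood fit of the 3 siRNA groups with libraries scaled by total counts, as the methods scale them. The methods used edgeR's exactTest, which is an alternative here, as are DESeq2 1.42.0, TMM factors, other filters, the replicate block and leaving out each library. P-values were adjusted by Benjamini-Hochberg over all 16073 genes and called at 0.05. Intervals are 95%. CPM per kb divides by the merged exon length. Correlations used log2 CPM with 0.5 read added. The test was tried on simulated data. The members and gene lists were chosen with earlier results of these data known. Genes named in the text are the 9 members, Cmtr1, further pathway genes called with either siRNA or between them, the 2 highest tested of each role, the 3 genes most like Id1, Id2 and Id3, and the 2 highest of each marker list. The other markers named, Bmp2, Nog and Tcf12 were named after their values were seen. Alternatives for the further pathway genes and Cmtr1 were added after seeing the data. Python 3.11.15 with pandas 2.3.3, numpy 2.4.6, scipy 1.17.1 and matplotlib 3.10.9 made tables and figures. Promoter sequences are RefSeq's.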

Additional observations from a re-analysis of the deposited data

Results flagged for a closer look

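In the libraries labelled siRNA 2, Bmp4 in replicate 3 was at 10.2 CPM, far above the other 3 libraries (a gap of 0.832 of the group's range, above Dixon's critical value for 4 samples). Of the 18 groups of 4 libraries checked for the 9 genes this was the only such value, and chance gives about 1 in 20. Without it the siRNA 2 difference of Bmp4 was -0.92 (adjusted p = 1.36e-05).

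Between siRNA 1 and siRNA 2, 4 of the 56 further pathway genes tested differed, beside 7.44% of all genes (edgeR's quasi-likelihood test, siRNA 2 minus siRNA 1). With that share, the count is no result about the pathway. Bmpr2 differed by 0.23 on the log2 scale (adjusted p = 0.00464), Smad4 by 0.18 (adjusted p = 0.0311), Skil by 0.20 (adjusted p = 0.00239) and Tcf4 by -0.21 (adjusted p = 0.00621). The calls for Bmpr2, Skil and Tcf4 held under all 18 alternatives. That for Smad4 was lost with DESeq2 (0.17, adjusted p = 0.0644) and without siRNA 1 replicate 1 (0.14, adjusted p = 0.146), siRNA 1 replicate 4 (0.18, adjusted p = 0.0673), siRNA 2 replicate 1 (0.17, adjusted p = 0.0902) or siRNA 2 replicate 3 (0.16, adjusted p = 0.0718).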

How the results depend on the processing

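Among the 9 genes, both Bmp4 calls against control held in every alternative run. All other settings left the Smad6 and Id3 calls with siRNA 2 in place except the omissions of a library named above. Over all 11 omissions Id3 ranged from -0.795 to -0.463 and Smad6 from -0.788 to -0.578. Values that changed sign were near 0 and not called: leaving out 1 library gave -0.0259 to 0.169 for Id2, -0.0027 to 0.149 for Id4 and -0.0115 to 0.0702 for Smad5 with siRNA 1, -0.00104 to 0.156 for Smad1 with siRNA 2, and -0.0442 to 0.115 for Id1, -0.237 to 0.00101 for Bmp4 and -0.0431 to 0.0134 for Smad1 between the siRNAs. Id2 with both siRNAs was -0.0188 with TMM factors, -0.0385 with the replicate block and -0.0224 with DESeq2, and -0.11 to 0.0841 when 1 library was left out.

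The counts of calls moved more. DESeq2 called 958 genes with siRNA 2 (1562 as reported), 740 between the siRNAs (1196) and 1 further pathway gene with siRNA 1 (4). EdgeR's exactTest called 693 genes with both siRNAs (1110) and 1 of the 9 genes (2). For this comparison it was run with the siRNA groups merged into 1, so the grouping changed with the test. Leaving out 1 library gave 355 to 852 genes with siRNA 1 (751 as reported), 807 to 1658 with siRNA 2, 724 to 1365 between the siRNAs and 499 to 1223 with both siRNAs. It gave 1 to 3 of the 9 genes with siRNA 2 and with both siRNAs, and 0 to 6, 3 to 8 and 2 to 5 further pathway genes with siRNA 1, siRNA 2 and both siRNAs. The cause was not tested.

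Replicate numbers gave no sign of pairing: deviations from the group means correlated from -0.05 to 0.05 between same-numbered libraries and from -0.06 to 0.07 between the others. Counting noise over all genes tested weakens such correlations, so they cannot show that the libraries were unpaired. With the replicate block, 840 genes were called with siRNA 1 and 1486 with siRNA 2, the calls of the 9 genes did not change, and those of Acvr1 (adjusted p = 0.0640) and Acvr2b (adjusted p = 0.0717) were lost. DESeq2 gave no adjusted p for Id4. Depth limits Id1, Id3 and Id4 most, at 10 to 61 reads per library.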
